A study of Mus musculus with 30 samples.

Results

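Genes of the mouse Hoxb cluster were followed through the first days of retinoic acid (RA) differentiation. The 8 members are Hoxb1, Hoxb2, Hoxb3, Hoxb4, Hoxb5, Hoxb6, Hoxb9 and Hoxb13. Every probe set annotated with exactly 1 of these symbols was taken, which gave 10 probe sets for the 8 genes, out of 34945 probe sets for 18193 genes on the array. Hoxb3 and Hoxb4 have 2 probe sets each and the other members 1. The cells were KH2, a mouse embryonic stem (ES) cell line kept on feeder fibroblasts. The RA dose was 0.3 uM, and cells were replated on gelatin for 30 minutes before lysis. The protocol texts describe that step in 2 ways, with RNA from the cells that adhered or from those in the medium drawn off. RNA of each of the 30 samples was hybridised to 1 Affymetrix array, with 6 arrays, lettered A to F, at 12 h and at 24 h and 3 at each other time (8 h, 16 h, 36 h, 48 h, 60 h, 72 h). The 8 h arrays are labelled baseline and all later ones retinoic acid. It is not said in the labels if the 8 h cells had been given RA. The treatment text names RA exposures shorter than any time here, so it is not settled that the hours are times in RA. No untreated arrays at the later times were analysed here, so time in culture and RA cannot be told apart.

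All levels are the authors' deposited log2 values, and all changes are differences of log2 group means, each ± its standard error from limma (SE). The level of 1 probe set was not compared with that of another. The spike-in controls split the arrays into 2 sets. Their log2 difference BioDn minus BioC was 0.99 to 1.07 in set 1 (8 h, 16 h and arrays A to C of 12 h and 24 h, 12 arrays) and 1.34 to 1.63 in set 2 (arrays D to F of 12 h and 24 h and all later arrays, 18 arrays). Levels and changes were therefore compared within a set, and arrays A to C and D to F of 12 h and 24 h were treated as separate groups of 3. A probe set was called when its Benjamini-Hochberg adjusted p over all 34945 was under 0.05. The labels do not say that arrays of a group came from separate cultures, so p-values reflect the spread among these samples alone, which may be technical. Of 10 ES cell markers listed for the label check (Pou5f1, Nanog and Sox2 among them), none lay below the arrays' lower quartile in any group, and their mean at 8 h was 12.43 to 12.51.

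Hox genes encode transcription factors that give cells their position along the head-to-tail axis of the embryo. Within a cluster the genes lie in the order of the body levels they pattern, and genes at the anterior end are generally switched on earlier and respond more readily to RA, which acts through receptors bound to DNA near the cluster. In the RefSeq gene table the members lie on chromosome 11 in the order Hoxb1, Hoxb2, Hoxb3 with Hoxb4 inside its span, Hoxb5, Hoxb6, Hoxb9 and Hoxb13, between Skap1 and Ttll6. Hoxb7 and Hoxb8, which lie between Hoxb6 and Hoxb9, are not among the 8 members.

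Promoter windows were available for 2 of the 8 members in the RefSeq table (build GRCm38.p6). These 2, Hoxb1 and Hoxb4, are shown as the matched windows of genes that rose by 24 h. Each runs from 250 to 21 bases before the start site on the plus strand, Hoxb1 at chr11:96365508-96365737 and Hoxb4 at chr11:96318017-96318246. Capitals mark matches on either strand to TGATNNAT, the motif of Hox proteins bound with their Pbx partners, and to AGGTCA, a motif of retinoid receptors.
Hoxb1: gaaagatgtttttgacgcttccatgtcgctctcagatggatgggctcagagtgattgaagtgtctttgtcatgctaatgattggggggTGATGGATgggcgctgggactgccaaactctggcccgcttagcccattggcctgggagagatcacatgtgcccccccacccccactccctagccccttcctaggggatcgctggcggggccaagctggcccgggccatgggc
Hoxb4: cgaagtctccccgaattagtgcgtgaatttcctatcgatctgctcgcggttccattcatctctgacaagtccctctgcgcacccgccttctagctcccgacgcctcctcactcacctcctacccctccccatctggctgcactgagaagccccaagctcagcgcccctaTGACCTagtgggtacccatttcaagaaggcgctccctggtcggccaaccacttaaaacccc
The Hoxb1 window held 1 match to TGATNNAT, at its bases 89 to 96, as did at least 1 place in 7.26% of 32851 promoter windows of that length. The Hoxb4 window held none of these and 1 AGGTCA, on the minus strand at bases 170 to 175, a motif found in 13% of windows. The variant AGTTCA was in neither window (11.1% of all windows). Nor was the variant GGGTCA (10.9%), and the variant GGTTCA was absent from both as well (8.22%). Neither window held a direct repeat of any pair of these motifs spaced by 2 or 5 bases (0.161% and 0.0761% of windows).

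All 10 Hoxb probe sets rose between 8 h and 24 h on arrays A to C, against 17.6% of all probe sets called higher. Of them 9 rose by at least 1 log2, a size reached by 1.41% of all probe sets, and the exception was Hoxb13. At 16 h against 8 h, all 10 were called higher (19.4% of all probe sets were) and 9 rose by at least 1 log2 (1.42%). In that comparison the exception was Hoxb3 1427605_at, at 0.82 ± 0.13. At 12 h, arrays A to C, 8 were called higher than 8 h (8.59% of all) and 1 by at least 1 log2 (0.0372%). Between 12 h and 16 h all 10 rose (8.44%), 5 of them by at least 1 log2 (0.163%). The RNA came from whole samples, so more cells expressing a gene and more RNA per cell cannot be told apart.

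**Figure D1:**
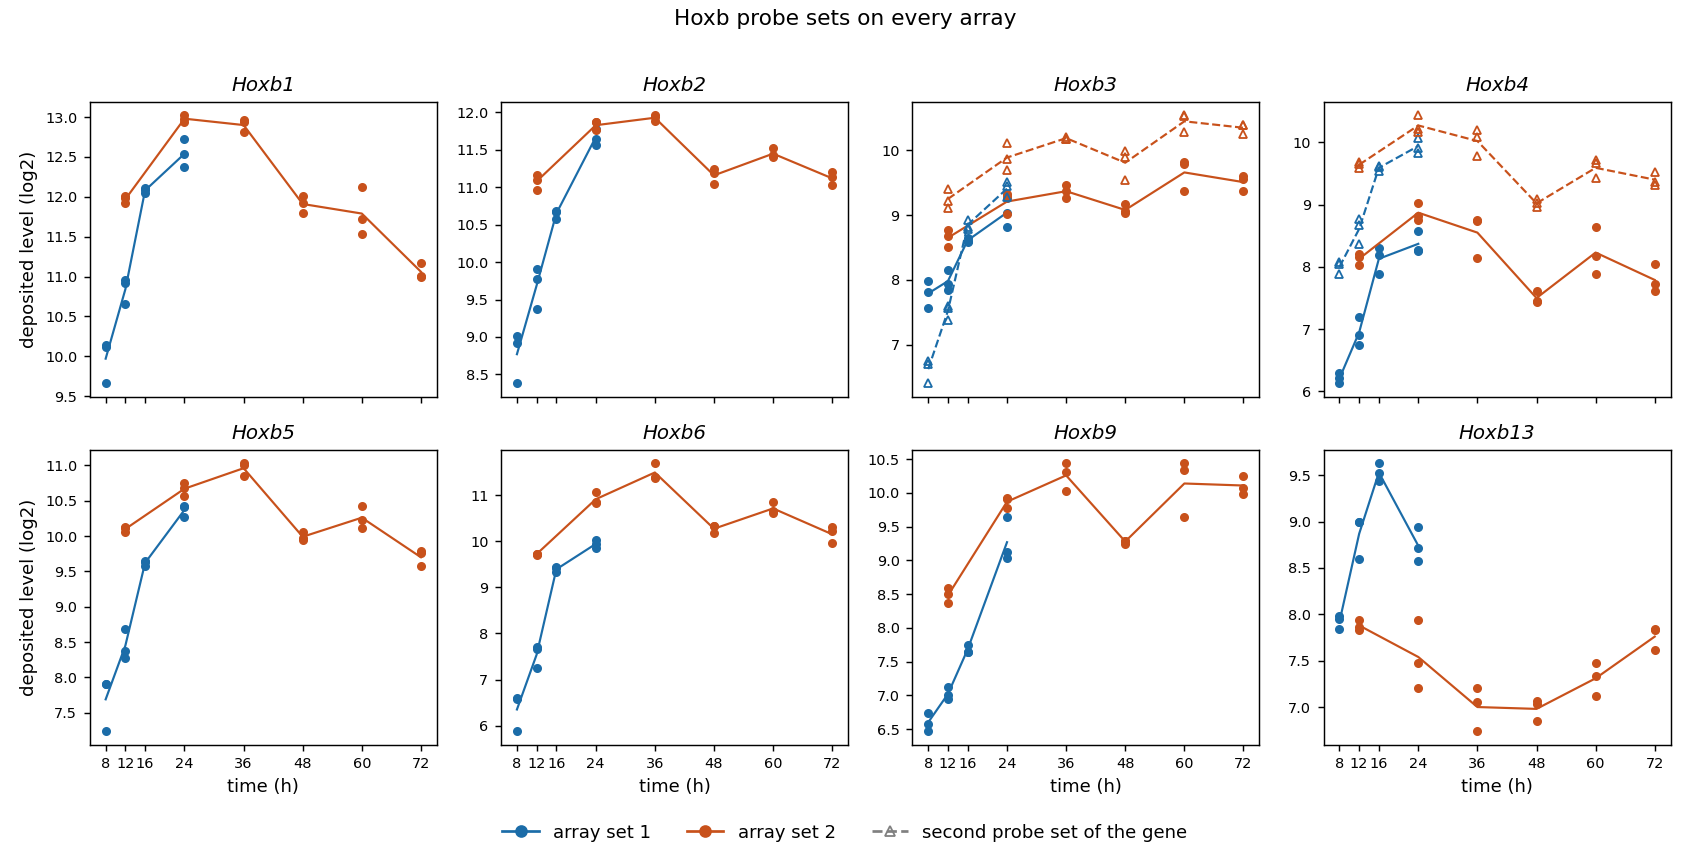
Deposited log2 level of each Hoxb probe set (y axis) on every array by time in hours (x axis), with lines through the group means. Blue marks array set 1 and orange array set 2. Open triangles and dashed lines mark the second probe set of Hoxb3 (1456229_at) and of Hoxb4 (1460379_at). All members were higher at 24 h than at 8 h in set 1, and Hoxb13 was highest at 16 h. The set 2 arrays at 12 h lay above the set 1 arrays of that time in all members but Hoxb13.

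Hoxb1, which specifies a segment of the hindbrain, lay at 10.12, 10.14 and 9.66 at 8 h, at 10.65, 10.92 and 10.96 at 12 h A to C, at 12.05, 12.11 and 12.08 at 16 h, and at 12.37, 12.72 and 12.54 at 24 h A to C. Each group lay above the one before with no overlap. By 24 h the rise was 2.57 ± 0.12 (SE, n = 3 and 3, 5.94-fold, limma adjusted p = 2.6e-13). Hoxb2, a gene of the hindbrain and its cranial nerves, lay at 9.01, 8.92 and 8.38, then at 9.38, 9.77 and 9.91, then at 10.58, 10.69 and 10.67, and last at 11.57, 11.78 and 11.65. Its groups did not overlap either, and it rose by 2.90 ± 0.12 (7.44-fold, adjusted p = 2.1e-14).

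Hoxb3 and Hoxb4 act in the hindbrain and neck region. Hoxb3 1456229_at lay at 6.75, 6.70 and 6.40 at 8 h, at 7.38, 7.60 and 7.57 at 12 h A to C, at 8.82, 8.93 and 8.79 at 16 h, and at 9.28, 9.45 and 9.51 at 24 h A to C, again with no overlap between groups. Its rise by 24 h was 2.79 ± 0.12 (6.93-fold, limma adjusted p = 1.7e-14). The other Hoxb3 probe set, 1427605_at, changed less, from 7.81, 7.57 and 7.98 at 8 h to 8.81, 9.27 and 9.03 at 24 h A to C, a rise of 1.25 ± 0.13 (2.38-fold, adjusted p = 3.7e-08). Its 12 h arrays (7.93, 7.85 and 8.15) overlapped those of 8 h, and the difference of 0.19 ± 0.13 was not called (adjusted p = 0.37). The 2 probe sets of Hoxb3 thus disagreed on the size of the rise and on whether it had begun at 12 h.

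For Hoxb4, the probe sets 1451761_at and 1460379_at were close in size of rise, at 2.16 ± 0.17 and 1.93 ± 0.11 by 24 h A to C (4.46-fold and 3.81-fold, limma adjusted p = 8.7e-10 and 2.9e-12). On 1460379_at the arrays lay at 8.08, 7.88 and 8.05 at 8 h, at 8.37, 8.68 and 8.77 at 12 h, at 9.62, 9.61 and 9.54 at 16 h, and at 9.83, 10.07 and 9.91 at 24 h. The largest step of this rise, 0.98 ± 0.11, fell between 12 h and 16 h. On 1451761_at the 16 h and 24 h arrays overlapped (7.89 to 8.31 and 8.25 to 8.58).

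Hoxb5 and Hoxb6 pattern the level of the shoulder and upper trunk. Hoxb5 lay at 7.91, 7.90 and 7.24 at 8 h, at 8.28, 8.37 and 8.69 at 12 h A to C, at 9.65, 9.58 and 9.64 at 16 h, and at 10.27, 10.42 and 10.41 at 24 h A to C. It rose by 2.68 ± 0.13 by 24 h (6.42-fold, limma adjusted p = 1.5e-13). Hoxb6 lay at 6.57, 6.59 and 5.88, then at 7.25, 7.67 and 7.70, then at 9.33, 9.43 and 9.41, and last at 9.86, 10.02 and 9.93. Its groups were separate at every step, and its rise of 3.59 ± 0.14 (12.1-fold, adjusted p = 5.1e-15) had the highest estimate of the 10 probe sets. It was also the single member called with at least 1 log2 already at 12 h, at 1.2 ± 0.14 (adjusted p = 8.4e-06). Array C of 8 h was the lowest of its group in Hoxb1, Hoxb2, Hoxb3 1456229_at, Hoxb4 1451761_at, Hoxb5, Hoxb6 and Hoxb9. Without it the 12 h rise of Hoxb6 was 0.96, under that size, and the count of called members stayed at 8 at 12 h and 10 at 16 h and 24 h.

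Hoxb9, a gene of the thoracic level, made most of its rise after 16 h. It lay at 6.57, 6.74 and 6.47 at 8 h, at 6.95, 7.0 and 7.12 at 12 h A to C, at 7.74, 7.64 and 7.65 at 16 h, and at 9.04, 9.65 and 9.12 at 24 h A to C. The groups did not overlap, but the 12 h difference of 0.43 ± 0.16 was not called (limma adjusted p = 0.068). Relative to Hoxb9, the 12 h change was higher by 0.44 in Hoxb1 (95% interval 0.03 to 0.86), by 0.77 in Hoxb6 (0.39 to 1.15) and by 0.51 in Hoxb13 (0.10 to 0.93), each with an exact permutation p of 0.1. The difference was 0.47 in Hoxb3 (0.09 to 0.85, exact permutation p = 0.1) and 0.49 in Hoxb2 (0.09 to 0.88, p = 0.2). In Hoxb4 (0.17, -0.23 to 0.57) and Hoxb5 (0.33, -0.03 to 0.70) the intervals included no difference, with exact permutation p of 0.4 and 0.2. By 24 h the rise of Hoxb9 was 2.67 ± 0.16 (6.38-fold, limma adjusted p = 6.1e-12), close to that of Hoxb1 and Hoxb5. Of that rise 16 ± 5.4% (SE) stood at 12 h and 40.4 ± 5.1% at 16 h. In Hoxb1 to Hoxb6 the share reached at 16 h was 64.7% (Hoxb2) to 88.9% (Hoxb4 1451761_at), with SE of 3.7 to 8.8 percentage points.

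Between 16 h and 24 h A to C, 8 probe sets rose (15.5% of all) and Hoxb13 fell (13.4%). The rises were 1.59 ± 0.16 for Hoxb9 and 1.02 ± 0.12 for Hoxb2 (limma adjusted p = 3.8e-08 and 7.2e-07), and 0.35 to 0.74 for the other 6. Without array B of 24 h the rises of Hoxb3 1427605_at and Hoxb4 1460379_at were 0.31 and 0.28 and no longer called (adjusted p = 0.09 for each), and the latter call was also lost without array C of 16 h (0.32, adjusted p = 0.056). These comparisons with Hoxb9 on the same arrays, and those with Hoxb1 and Hoxb13 given later, were added after the values had been seen. Relative to Hoxb9, the change from 16 h to 24 h was lower by 1.13 in Hoxb1 (-1.13, 95% interval -1.54 to -0.71), by 1.24 in Hoxb4 (-1.24, -1.64 to -0.84), by 0.85 in Hoxb5 (-0.85, -1.21 to -0.48) and by 0.57 in Hoxb2 (-0.57, -0.96 to -0.18). All 7 members gave an exact two-sided permutation p of 0.1, the smallest that 3 against 3 arrays can give.

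**Figure D2:**
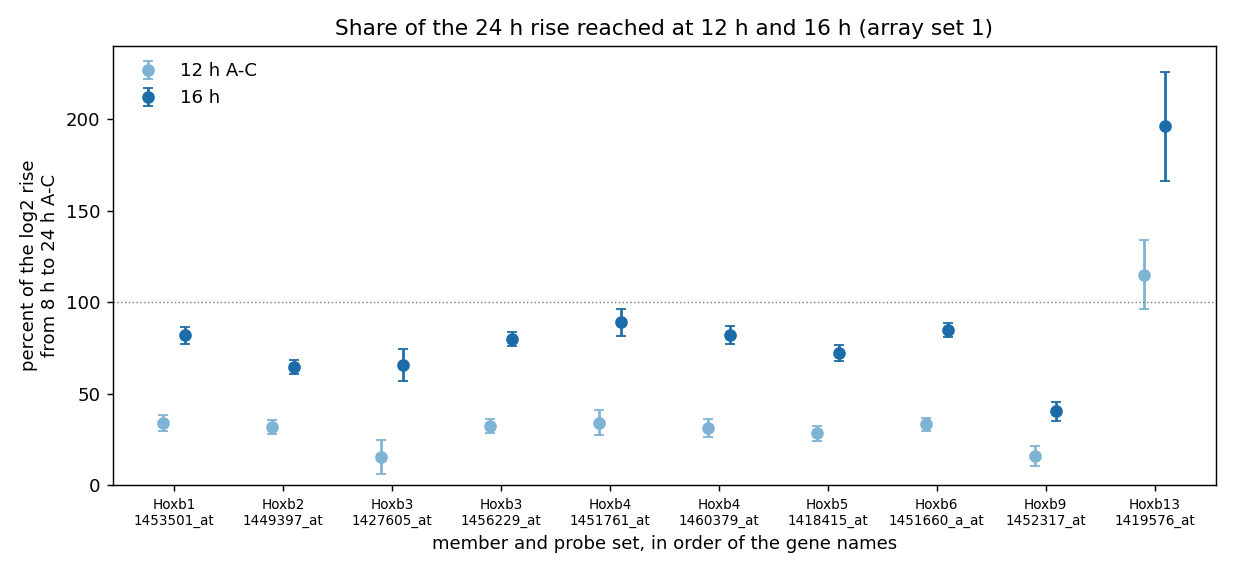
Percent of each probe set's log2 rise from 8 h to 24 h A to C (y axis) that was reached at 12 h A to C (light blue) and 16 h (dark blue), with bars for ± 1 SE, n = 3 arrays per group. Hoxb9 reached 40.4% at 16 h, and Hoxb13 stood at 196% of its 24 h rise, since it fell after 16 h.

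Markers of the feeder fibroblasts were watched alongside. Of 11 measured fibroblast markers, 1 was called higher at 24 h A to C than at 8 h (23.5% of all genes were). At 16 h 6 were called higher (25.6%), and the median changes were 0.30 at 24 h and 0.88 at 16 h. Their mean was 7.83 to 8.14 at 8 h, 8.49 to 8.99 at 16 h and 8.31 to 8.39 at 24 h A to C, and none was below the lower quartile. Other marker lists moved as well from 8 h to 24 h A to C. Of 8 neural markers 6 were higher and 0 lower, and of 7 endoderm markers 5 and 1. Of 7 mesoderm markers 3 were higher and 1 lower, and of 10 ES cell markers 0 and 8 (23.5% and 15.8% of all genes). The part of these lists in the Hoxb changes was not tested.

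Hoxb13, at the far end of the cluster and expressed in the tail of the embryo, took a different course. It lay at 7.95, 7.84 and 7.98 at 8 h, at 8.60, 9.0 and 9.0 at 12 h A to C, at 9.44, 9.53 and 9.63 at 16 h, and at 8.94, 8.58 and 8.72 at 24 h A to C. All 16 h arrays lay above all others of set 1, and the 12 h and 24 h arrays overlapped. It rose by 1.61 ± 0.15 by 16 h (3.06-fold, limma adjusted p = 5.9e-09) and then fell by 0.79 ± 0.15 by 24 h (adjusted p = 0.00017). Against Hoxb9 its change from 16 h to 24 h was -2.38 (95% interval -2.79 to -1.97, exact permutation p = 0.1). Its rise was already called at 12 h, with 0.94 ± 0.15 (adjusted p = 0.00013).

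The arrays lettered D to F gave another picture of the same nominal times. At 12 h, 9 of the 10 probe sets were higher in arrays D to F (15.2% of all probe sets were) and Hoxb13 was lower (17.6%). Hoxb6 lay at 9.72, 9.71 and 9.73 in D to F against 7.25, 7.67 and 7.70 in A to C, a difference of 2.18 ± 0.14 (4.53-fold, limma adjusted p = 9e-11). In Hoxb13 the D to F arrays lay at 7.86, 7.83 and 7.94, below all A to C arrays of that time, with a difference of -0.99 ± 0.15 (adjusted p = 9.8e-06). At 24 h the gap had narrowed for all but Hoxb13, with 6 probe sets higher in D to F (12.1%) by 0.33 to 0.98 and Hoxb13 lower (16.7%), with a difference of -1.2 ± 0.15. Without array A of 24 h the total of 7 called fell to 4, with the calls of Hoxb1 and of both Hoxb4 probe sets lost. The Hoxb4 calls were also lost without array C or array E. Letter and array set run together, so the spike-in split and any difference in culture cannot be told apart.

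Within D to F, all 9 probe sets other than Hoxb13 rose from 12 h to 24 h (12.9% of all), by 0.56 to 1.39. Hoxb9 lay at 8.37, 8.50 and 8.59 at 12 h and at 9.92, 9.78 and 9.91 at 24 h, a rise of 1.39 ± 0.16 (limma adjusted p = 5.2e-07) and the highest estimate of the 10. Hoxb1 lay at 11.99, 11.92 and 12.01 and then at 12.94, 13.02 and 12.97, a rise of 1.00 ± 0.12 (adjusted p = 2.1e-06). In A to C the same 9 probe sets had higher estimates over this interval, and the difference itself was called in 7 of 10 (limma interaction test, 15% of all probe sets called in either direction).

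From 24 h D to F to 36 h most members were not called. Hoxb6 rose by 0.57 ± 0.14 (limma adjusted p = 0.011) and was the single probe set called higher (5.96% of all). Hoxb13 was the single one called lower (3.26%), at -0.54 ± 0.15 (adjusted p = 0.019). Its arrays at 24 h (7.48, 7.94 and 7.21) met those at 36 h (7.05, 7.21 and 6.74) at one value. These 2 calls rested on few arrays. Without array D of 24 h neither was called (0.53 for Hoxb6 and -0.57 for Hoxb13, adjusted p = 0.063 and 0.051), and limma run on these groups only left 1 call.

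The time of the highest mean in set 2 differed along the cluster. It was 24 h D to F for Hoxb1 and for both Hoxb4 probe sets, 36 h for Hoxb2, Hoxb5, Hoxb6 and Hoxb9, 60 h for both Hoxb3 probe sets and 12 h D to F for Hoxb13. The neighbours in these orders were often not separate. For Hoxb1 (12.94, 13.02 and 12.97 at 24 h, 12.96, 12.94 and 12.81 at 36 h) and Hoxb4 1460379_at the 24 h and 36 h arrays overlapped. For Hoxb9 the 36 h and 60 h arrays did, and for both Hoxb3 probe sets the 60 h and 72 h arrays did. On Hoxb3 1427605_at the 60 h arrays (9.38 to 9.82) also overlapped those of 36 h (9.26 to 9.47), and 60 h was not tested against 36 h. In Hoxb13 all 5 pairs of neighbours in the order overlapped, 12 h D to F and 72 h among them. In Hoxb2, Hoxb5 and Hoxb6 the 36 h arrays lay above all arrays of the next highest group, 24 h D to F. The differences of Hoxb2 (0.10 ± 0.12) and Hoxb5 (0.29 ± 0.13) were not called, however (limma adjusted p = 0.72 and 0.17). Their later peak is thus not settled, and that of Hoxb6 rests on the call given above.

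At 48 h, 8 of the 10 probe sets were lower than at 36 h (10.2% of all probe sets were lower). Hoxb6 went from 11.40, 11.69 and 11.37 to 10.32, 10.18 and 10.32, a fall of 1.21 ± 0.14 (log2 change -1.21, limma adjusted p = 2e-06). Hoxb1, at 12.96, 12.94 and 12.81 and then 11.92, 12.01 and 11.80, changed by -0.99 ± 0.12, and both Hoxb4 probe sets by -1.05 ± 0.17 and -1.0 ± 0.11. Hoxb5 and Hoxb9 changed by -0.97 ± 0.13 and -0.98 ± 0.16, and Hoxb2 by -0.77 ± 0.12. In 9 of the 10 probe sets the highest 48 h array was under the lowest 36 h array (16.4% of all), Hoxb13 being the exception.

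Hoxb3 fell least among the called, with -0.38 ± 0.12 on 1456229_at (limma adjusted p = 0.029). That call was lost without any 1 of the 3 arrays of 36 h, and without array C of 48 h, when the change was -0.24. Its other probe set changed by -0.28 ± 0.13 (adjusted p = 0.14). Hoxb13 differed by -0.02 ± 0.15 (7.05, 7.21 and 6.74 at 36 h, 6.85, 7.07 and 7.03 at 48 h). The fall at 48 h in Hoxb3 was smaller than in Hoxb1 by 0.62 (95% interval 0.29 to 0.94, exact permutation p = 0.1).

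Fibroblast markers moved at the same step. Of the 11 measured, 10 were called higher at 48 h than at 36 h and 0 lower (7.59% and 14.5% of all genes). The median change was 1.5 beside -0.02 over all genes. Their mean was 8.83 to 9.28 at 36 h, 9.90 to 10.95 at 48 h, 9.70 to 10.36 at 60 h and 9.87 to 10.70 at 72 h, with none below the lower quartile. Of the 10 ES cell markers, 2 were higher and 4 lower at 48 h, with a median of 0.00. Of 8 neural markers 3 were higher and 1 lower, of 7 endoderm markers 2 and 0, and of 7 mesoderm markers 1 and 0. The part of any marker list in the Hoxb fall was not tested.

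**Figure D3:**
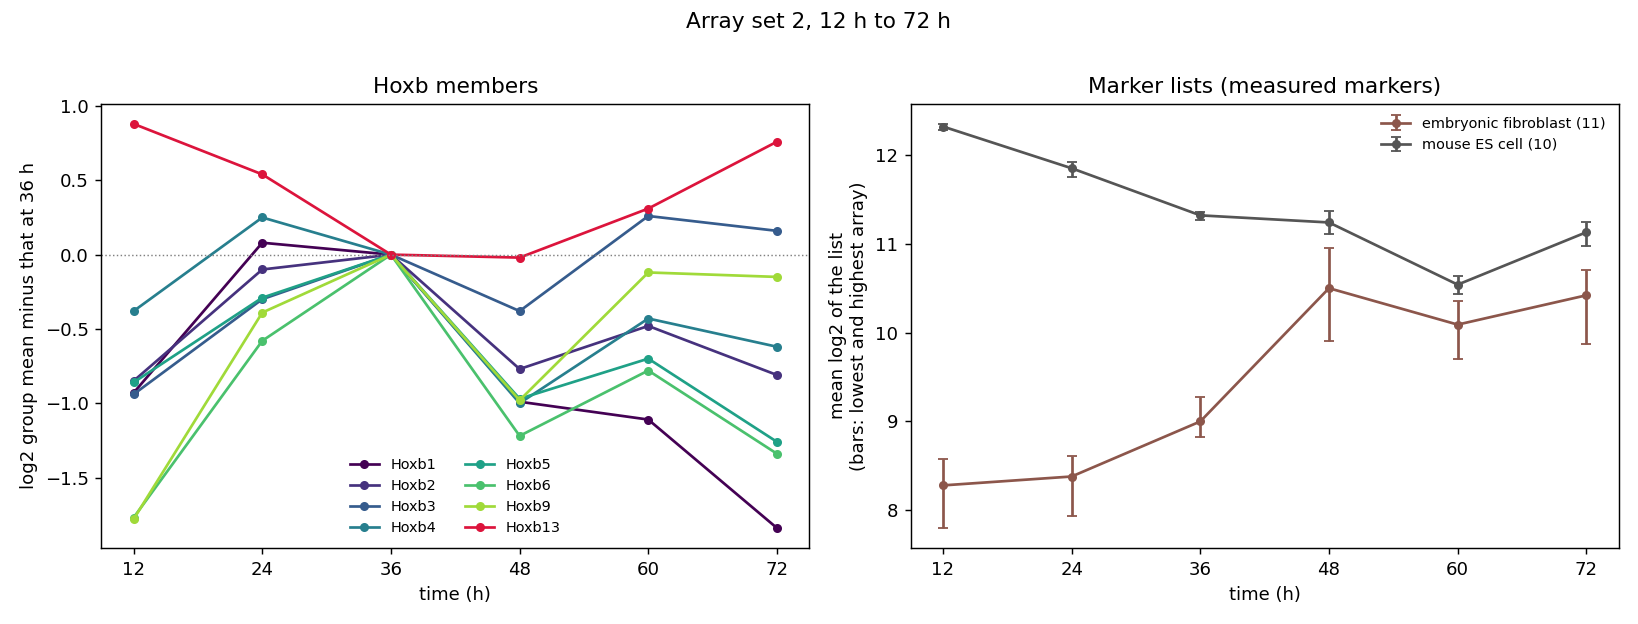
Left, group mean of each Hoxb member minus its mean at 36 h (log2, y axis) by time in hours (x axis) in array set 2, with 1456229_at for Hoxb3 and 1460379_at for Hoxb4. Right, mean log2 of the 11 fibroblast and 10 ES cell markers measured, with bars from the lowest to the highest array. Means were lower at 48 h than at 36 h, in Hoxb13 by a difference of only -0.02, and the members spread apart by 72 h. The fibroblast mean rose from 9.0 at 36 h to 10.5 at 48 h, and was also higher at 36 h than at 24 h (8.38) and at 72 h (10.42) than at 60 h (10.09).

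From 48 h to 60 h, 6 probe sets rose (7.98% of all). They were Hoxb9 by 0.87 ± 0.16, both Hoxb4 probe sets by 0.73 ± 0.17 and 0.57 ± 0.11, both Hoxb3 probe sets by 0.58 ± 0.13 and 0.64 ± 0.12, and Hoxb6 by 0.43 ± 0.14 (limma adjusted p = 0.00034 to 0.034). Hoxb9 went from 9.24, 9.29 and 9.29 to 9.64, 10.34 and 10.44, with no overlap although array A of 60 h lay well below the other two. Hoxb1 did not follow. It lay at 11.92, 12.01 and 11.80 and then at 12.12, 11.72 and 11.53, a difference of -0.12 ± 0.12 (adjusted p = 0.57), and relative to Hoxb1 the change of Hoxb9 was higher by 0.99 (95% interval 0.59 to 1.39, exact permutation p = 0.1). Among the ES cell markers 8 of 10 were lower at 60 h (13.8% of all genes), with a median of -0.74, and their part in the result was not tested. When limma was run on those groups only, 1 of the 6 calls was left, and the call of Hoxb6 was lost without any 1 of the arrays 48 h A to C or 60 h A and B.

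At 72 h against 60 h, 3 probe sets were lower (2.34% of all), namely Hoxb1 by 0.73 (-0.73 ± 0.12), Hoxb5 by 0.55 (-0.55 ± 0.13) and Hoxb6 by 0.55 (-0.55 ± 0.14), at limma adjusted p of 0.00061, 0.0075 and 0.016. Of the 10 ES cell markers 7 were higher and 1 lower at this step (8.54% and 2.67% of all genes). Their median was 0.66, and their part was not tested. Hoxb13 rose from 7.12, 7.34 and 7.47 to 7.84, 7.61 and 7.83 without overlap, but the difference of 0.45 ± 0.15 was not called (adjusted p = 0.054). These counts moved with the fit. None of the 3 was called when limma was run on those groups only, 8 probe sets were called with array weights, and 5 were called without array C of 60 h. The call of Hoxb6 was lost without array B of either time.

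After 36 h the members parted. At 72 h against 36 h, 6 probe sets were lower (15.5% of all), 1 was higher (13.3%) and 3 were not called. Hoxb1 dropped furthest, from 12.96, 12.94 and 12.81 to 10.99, 11.17 and 11.01, a change of -1.85 ± 0.12 (limma adjusted p = 5.5e-11). Hoxb6 changed by -1.33 ± 0.14, Hoxb5 by -1.26 ± 0.13, Hoxb2 by -0.81 ± 0.12, and Hoxb4 by -0.76 ± 0.17 and -0.62 ± 0.11.

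Hoxb3 and Hoxb9 were not called between 36 h and 72 h. The 2 Hoxb3 probe sets differed by 0.15 ± 0.13 and 0.16 ± 0.12 (95% intervals -0.11 to 0.40 and -0.08 to 0.40), and Hoxb9 by -0.15 ± 0.16 (-0.47 to 0.17). Hoxb9 lay at 10.03, 10.44 and 10.31 at 36 h and at 10.08, 9.99 and 10.25 at 72 h, which overlapped. Relative to Hoxb9, the change was -1.70 in Hoxb1 (95% interval -2.12 to -1.28), -1.18 in Hoxb6 (-1.56 to -0.81), -1.11 in Hoxb5 (-1.48 to -0.74), -0.66 in Hoxb2 (-1.05 to -0.27), -0.48 in Hoxb4 (-0.88 to -0.07) and 0.31 in Hoxb3 (-0.07 to 0.69). The exact permutation p was 0.1 for each but Hoxb3, at 0.2. Along the cluster, Hoxb3 was thus not called while Hoxb2 and Hoxb4 beside it were lower. Its change was not compared directly with theirs. The change of Hoxb3 was higher by 2.01 (1.68 to 2.33) than that of Hoxb1, the member that dropped furthest. Fibroblast markers were higher at 72 h than at 36 h in 9 of 11, with a median of 1.51 (15.5% of all genes were higher and 20.2% lower). Of 7 endoderm markers 6 were higher and 0 lower, and of 8 neural markers 4 and 1. Of 7 mesoderm markers 3 were higher and 1 lower, and of 10 ES cell markers 2 and 5. The part of these lists was not tested.

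**Figure D4:**
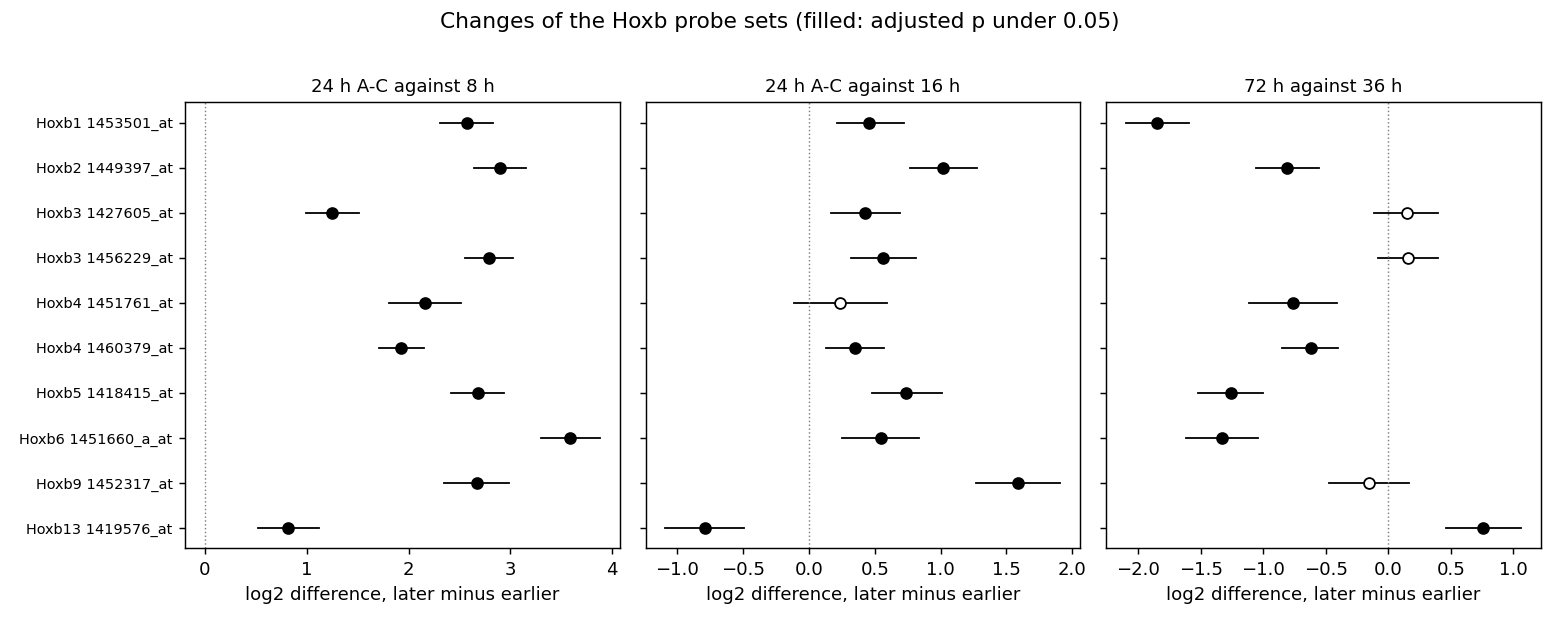
Log2 difference (x axis) of each Hoxb probe set (y axis) with its 95% interval from the limma fit, 3 arrays against 3, for 24 h A to C against 8 h, 24 h A to C against 16 h, and 72 h against 36 h. Filled circles mark adjusted p under 0.05. All 10 rose by 24 h, Hoxb9 rose by 1.59 after 16 h while Hoxb13 fell, and Hoxb3 and Hoxb9 were not called after 36 h while Hoxb1 changed by -1.85.

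Set against the start of the same array set, 4 probe sets were higher at 72 h than at 12 h D to F (23.3% of all) and 2 were lower (30.2%). The higher ones were Hoxb9 by 1.63 ± 0.16, both Hoxb3 probe sets by 1.10 ± 0.12 and 0.86 ± 0.13, and Hoxb6 by 0.43 ± 0.14 (limma adjusted p = 2.8e-09 to 0.012). Hoxb1 and Hoxb5 were lower, at -0.92 ± 0.12 and -0.40 ± 0.13 (adjusted p = 9.2e-07 and 0.01). The call of Hoxb6 was lost without array A of 72 h and that of Hoxb5 without array B. Hoxb2, back at 11.14, 11.03 and 11.20 from 11.10, 11.17 and 10.96, differed by 0.05 ± 0.12. Over the whole course, all 10 probe sets passed limma's F test in both array sets (38.4% of all probe sets did), with adjusted p of 1.1e-14 to 4.1e-08 in set 1 and 7.8e-12 to 1.1e-05 in set 2.

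Hoxb13 was the single member called higher at 72 h than at 36 h. In set 2 it lay at 7.86, 7.83 and 7.94 at 12 h D to F, was lowest at 36 h and 48 h, and returned to 7.12, 7.34 and 7.47 at 60 h and to 7.84, 7.61 and 7.83 at 72 h. The rise from 36 h to 72 h was 0.76 ± 0.15 (1.69-fold, limma adjusted p = 0.00028), with no overlap, and the 72 h arrays overlapped those of 12 h (-0.12 ± 0.15, adjusted p = 0.51). Relative to Hoxb13, Hoxb1 changed by -2.60 over that interval (95% interval -3.00 to -2.21) and Hoxb9 by -0.91 (-1.31 to -0.50), each with an exact permutation p of 0.1.

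Correlations between members over arrays of 1 set describe the same courses and carry no test, since the arrays share times, set and normalization. Over the 12 arrays of set 1, Pearson's r of Hoxb1 with Hoxb2, both Hoxb4 probe sets and Hoxb5 was 0.98 to 0.99, with Hoxb9 0.90 and with Hoxb13 0.68. Over the 18 arrays of set 2, r of Hoxb1 was 0.88 with Hoxb5, 0.83 with Hoxb2, 0.07 with Hoxb9 and -0.14 and -0.19 with the Hoxb3 probe sets. Hoxb9 there went with Hoxb3 (r = 0.81 and 0.88).

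Genes of the RA pathway were described by a list of 20, of which 17 were measured, 1 probe set per gene. At 24 h A to C against 8 h, 8 were called higher and 2 lower, with a median change of 0.19, beside 23.5% higher, 15.8% lower and a median of -0.02 over 18193 genes. Crabp2, which carries RA to the nucleus, rose by 3.65 ± 0.14, Stra6, a membrane receptor for retinol uptake, by 1.10 ± 0.10, and the RA receptor gene Rarb by 0.93 ± 0.12 (limma adjusted p = 1.1e-15, 4.3e-09 and 1e-06). At 72 h against 12 h D to F, 9 rose and 5 fell (26.2% and 34.5% of all genes did), and the median was 0.83. Rarb rose by 2.87 ± 0.12, Stra6 by 2.36 ± 0.10 and Cyp26b1, an enzyme that degrades RA, by 2.25 ± 0.13.

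Regulators and cofactors of Hoxb genes made a second list, with 15 of 17 measured. By 24 h A to C, 9 were higher and 1 lower than at 8 h (23.5% and 15.8% of all genes), with a median of 0.38. The rises included Pknox2 (2.09 ± 0.12), Meis1 (2.08 ± 0.12) and Meis2 (1.85 ± 0.13), all of the homeodomain class that binds DNA with Hox and Pbx proteins (limma adjusted p = 3.7e-12, 2.7e-12 and 6.8e-11). From 12 h D to F to 72 h, 6 rose and 5 fell (26.2% and 34.5% of all genes did), and the median was 0.06. Meis1 rose by 2.86 ± 0.12 and Meis2 by 1.72 ± 0.13, while Gbx2, a gene of the border between midbrain and hindbrain, changed by -2.32 ± 0.11.

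Hox genes of the other clusters were measured for 24 of 29. At 24 h A to C, 16 were higher and 0 lower than at 8 h by limma (23.5% and 15.8% of all genes). The median was 0.60. Hoxc5 rose by 3.32 ± 0.20, Hoxc4 by 2.60 ± 0.12 and Hoxa5 by 2.59 ± 0.09. At 48 h against 36 h, where 8 of 10 Hoxb probe sets fell, 5 of these 24 were higher and 5 lower (7.59% and 14.5% of all genes), with a median of 0.02. At 72 h against 36 h, 10 rose and 5 fell (15.5% and 20.2%), and the median was 0.18. From 12 h D to F to 72 h, 17 rose and 1 fell (26.2% and 34.5% of all genes did), and the median was 1.26. The largest rises were those of Hoxc8 (5.94 ± 0.22), Hoxc10 (5.86 ± 0.22) and Hoxc5 (3.17 ± 0.20).

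Genes beside the Hoxb cluster on chromosome 11 gave 18 measured of 23 names. At 24 h A to C against 8 h, 4 rose and 3 fell (23.5% and 15.8% of all genes did). The median was -0.03, near the -0.02 of all genes. The higher ones named by size were B4galnt2 (1.86 ± 0.24), Skap1, the neighbour of Hoxb1 (0.88 ± 0.15), and Copz2 (0.80 ± 0.14), with limma adjusted p of 1.1e-06, 3.6e-05 and 7.1e-05. From 12 h D to F to 72 h, 3 rose and 10 fell (26.2% and 34.5% of all genes did). The median was -0.21, beside -0.09 over all genes. Copz2 rose by 1.61 ± 0.14, B4galnt2 by 1.01 ± 0.24 and Gngt2 changed by -1.10 ± 0.13.

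Genes outside the cluster with the most similar courses were ranked by the lower of the r values over the 12 arrays of set 1 and the 18 of set 2, among 538 genes whose group means spanned at least 1 log2 in both sets. Nearest to Hoxb1 were Ptch1, the receptor of hedgehog ligands (r = 0.98 and 0.97), and Prtg, a membrane protein of the early neural tube (0.99 and 0.95). Ptch1 rose from 12.13 ± 0.10 (SD, n = 3) at 8 h to 13.19 ± 0.16 at 24 h A to C and went from 12.74 ± 0.13 at 24 h D to F to 10.83 ± 0.04 at 72 h. For Hoxb9 they were Hoxa5 (0.98 and 0.93) and LOC102631979 (0.95 and 0.92), and Hoxa5 held 12.12 ± 0.02 at 24 h D to F and 11.92 ± 0.07 at 72 h.

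Hoxb3 was nearest to Zfp618 (r = 0.95 and 0.96) and to Glrb (0.98 and 0.94), a subunit of the glycine receptor. For Hoxb4 they were Hoxa3 and Gch1 (0.96 and 0.90 for each), for Hoxb5 Ptch1 (0.96 and 0.86) and H2-K1 (0.95 and 0.85), and for Hoxb6 Zfp703 (0.98 and 0.91) and H2-K1 (0.99 and 0.89). The probe sets of Glrb, Hoxa3 and H2-K1 are of types that can match several transcripts. Hoxb2 and Hoxb13 spanned 0.85 and 0.90 in set 2, under the limit, and had no such neighbours.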

How the data were processed

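The authors deposited 1 table of log2 values for 45101 probe sets on 30 arrays. Limma 3.8.3 is named in the submitters' processing notes, and the background correction, probe summary and normalization are not given in the sources used here. Array medians were 6.34 to 6.39, and precision is limited by the number of arrays. Leaving out 64 controls, 9160 unnamed probe sets and 932 of several genes, 34945 were fitted in limma 3.58.1 (R 4.3.3), with 10 groups of 3 arrays, no block, no dim filter and empirical Bayes variance, and adjusted by Benjamini-Hochberg over all of them. Lists used the probe set with the highest mean of each gene.

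The members, lists, array sets and comparisons were chosen with earlier results of these data known. All 8 members were named, up to 3 called genes per list with the largest change in 24 h A to C against 8 h and in 72 h against 12 h D to F, and the 2 genes most like each member. The fit was tested on simulated data. No pair of arrays within a group was identical (0 of 30). Same-lettered arrays did not in general deviate together (87 pairs, median r -0.01, highest 0.6, 22 over 0.1). Pairs of different letters had a median r of 0 and a highest of 0.39 (318 pairs, 74 over 0.1). Letters were therefore not used as pairs. Alternatives were other normalizations, filters, probe set choices, variance priors, weights, groupings and thresholds, and each array left out.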

Additional observations from a re-analysis of the deposited data

Results flagged for a closer look

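Between 12 h and 24 h, 7 of the 10 Hoxb probe sets changed less in arrays D to F than in arrays A to C by limma's interaction test, which called 15% of all probe sets in either direction. Hoxb5 rose by 1.92 in A to C and by 0.57 in D to F, a difference of -1.35. The differences were -1.25 in Hoxb3 1456229_at, -1.23 in Hoxb2, -1.2 in Hoxb6, -0.86 in Hoxb9, -0.71 in Hoxb4 1460379_at and -0.70 in Hoxb1, at adjusted p of 1.5e-05 to 0.0088. Hoxb3 1427605_at and Hoxb4 1451761_at differed by -0.50 and -0.68 without being called (adjusted p = 0.057 and 0.058), and Hoxb13 by -0.21. Letter and array set cannot be told apart. No group held enough arrays for a check of single outlying arrays.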

How the results depend on the processing

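The precision is set by 3 arrays per group, and no detection calls were used. The counts in this section are of called members. Shares of all probe sets under the other settings are not given here, so these counts are not set against the whole array. Centring or quantile normalizing again, the dim filter, other probe set choices and another variance prior left every count of called members within 1.5 times. Peak times were looked at again only after centring and after quantile normalizing, and every one stayed in place. In a fit of the compared groups alone the counts were 1 for 36 h against 24 h D to F, 1 for 60 h against 48 h and 0 for 72 h against 60 h, and array weights gave 8 for the last. With calls limited to 1 log2 or more the counts were 1 (12 h A to C against 8 h), 5 (16 h against 12 h), 2 (24 h against 16 h), 3 (24 h against 12 h, D to F), 0 (36 h against 24 h), 2 (48 h against 36 h), 0 (60 h against 48 h), 0 (72 h against 60 h), 2 (72 h against 12 h), 3 (72 h against 36 h) and 1 (24 h D to F against A to C). With letters A to F together they were 2 for 16 h against 12 h, 1 for 36 h against 24 h, 3 for 48 h against 36 h, 0 for 60 h against 48 h, 0 for 72 h against 60 h and 2 for 72 h against 36 h, and an additive term for the array set gave 3 for 24 h against 16 h and 1 for 72 h against 60 h. Pooling the letters reversed Hoxb9 at 16 h against 12 h (-0.08), Hoxb1 at 36 h against 24 h (0.14), and Hoxb4 (0.26 and 0.27) and Hoxb5 (0.43) at 72 h against 12 h. The array set term reversed Hoxb2 (-0.21), Hoxb3 1456229_at (-0.01) and Hoxb5 (-0.05) at 36 h against 24 h. The cause was not tested. Leaving out 1 array at a time gave 0 to 3 called for 36 h against 24 h D to F, 2 to 5 for 72 h against 60 h and 4 to 7 for 24 h D to F against A to C. It turned the sign of uncalled differences near 0 in Hoxb2 at 72 h against 12 h D to F (-0.01 to 0.1), Hoxb13 at 48 h against 36 h (-0.15 to 0.08), Hoxb9 at 72 h against 60 h (-0.28 to 0.12) and Hoxb1 at 60 h against 48 h (-0.29 to 0.01). With the replicate block, the letter as a block where both groups share letters, 98 of 100 values kept their side, Hoxb6 at 60 h against 48 h was not called (0.43, adjusted p = 0.06) and Hoxb13 at 72 h against 60 h was (0.45, adjusted p = 0.041).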

Other observations

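Other probe sets of the cluster, picked after their values were seen, took courses of their own. Hoxb5os, a long noncoding RNA of the cluster beside Hoxb6, lay at 6.53 ± 0.12 (SD, n = 3) at 8 h and 8.33 ± 0.13 at 24 h A to C, and in set 2 at 7.12 ± 0.03 at 12 h, 8.75 ± 0.14 at 24 h, 10.40 ± 0.29 at 36 h, 11 ± 0.11 at 48 h, 12.59 ± 0.04 at 60 h and 12.21 ± 0.04 at 72 h. At 48 h against 36 h it rose by 0.60 ± 0.10 (limma adjusted p = 0.00024), a step at which Hoxb5 and Hoxb6 were lower, and at 72 h against 36 h by 1.81 ± 0.10 (adjusted p = 3.5e-12). The source data do not say whether its probes and those of its neighbours are separate by strand.

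The probe set shared by Hoxb7 and Hoxb8, which was left out of the fit, had group means of 5.96 at 8 h and 10.38 at 24 h A to C, and of 10.61 at 12 h D to F, 12.04 at 36 h, 11.31 at 48 h and 11.21 at 72 h. The probe set annotated with Hoxb7 alone had group means between 4.75 and 5.07, near the arrays' lower quartile of 4.73 to 4.85. By limma it was lower at 72 h than at 12 h D to F (-0.32 ± 0.09, adjusted p = 0.0039) and than at 36 h (-0.26 ± 0.09, adjusted p = 0.027).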
